A study of Homo sapiens with 2 samples.

Results

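The SLC25 genes encode the mitochondrial carrier family, and 48 genes whose symbol is SLC25A followed by a number alone were found among the 60664 genes of the deposited files. All 48 are protein-coding. They were measured by RNA-seq in 2 libraries of untreated, wild-type HEK293T cells, an established human line derived from embryonic kidney cells. The libraries come from a study of R-loop mapping and form 1 group with no contrast, so the members are compared with each other, with all protein-coding genes and between the libraries. The cell line entry of replicate 2 reads HEK294T while its title reads HEK293T, and the labels name no separate cultures, so differences between replicates may be technical. Replicate 1 held 18011638 counts and replicate 2 held 18575058, so that a count of 0 allows up to 0.167 and 0.162 CPM, or counts scaled to a common library total. Errors given with ± are SDs (n = 2).

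Carriers of this family sit mainly in the inner mitochondrial membrane and exchange nucleotides, phosphate, carboxylates, amino acids and cofactors between the cytosol and the matrix. Each carrier is built from 3 similar repeats, and each repeat typically holds a signature that begins with proline and goes on with an acidic and a basic residue. Several substrates are served by paralogues that predominate in different tissues, such as heart, liver, testis or red cell precursors. Coding sequences of the 48 genes were taken from GENCODE 29 and searched for this signature. It was read as a run of codons for proline, any residue, an acidic residue, any 2 residues and a basic residue. Of the members, 44 held at least 1 such run, or 91.7%, against 29.6% of 19607 protein-coding genes. At least 3 such runs stood in 30 of the 48 genes, or 62.5%, against 2.64% of 19607 protein-coding genes. No such run was found in SLC25A46, SLC25A51, SLC25A52 or SLC25A53.

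The carrier genes took 0.300% of the counts of replicate 1 (exact 95% binomial interval 0.298 to 0.303) and 0.305% of replicate 2 (0.303 to 0.308). These intervals cover counting error only. At 1 CPM or more in both libraries, 65.9% of 19890 protein-coding genes were detected, the share to set beside each count of detected genes below. Of the members, 40 of 48 were detected, or 83.3%. Their median level was 10.2 TPM (the share of transcripts after division by gene length), against 2.88 TPM for all protein-coding genes. The middle range between quartiles ran from 3.33 to 25.3 TPM in the members and from 0.103 to 13.8 TPM in all protein-coding genes. Among detected genes alone the medians were 13.0 and 8.52 TPM. The family's RNA was concentrated in a few genes: SLC25A5 and SLC25A6 together held 62.0% ± 1.36 of the family's summed TPM and 39.7% ± 1.95 of its counts. The 10 members with the highest TPM held 86.9% ± 1.44 of the summed TPM.

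**Figure D1:**
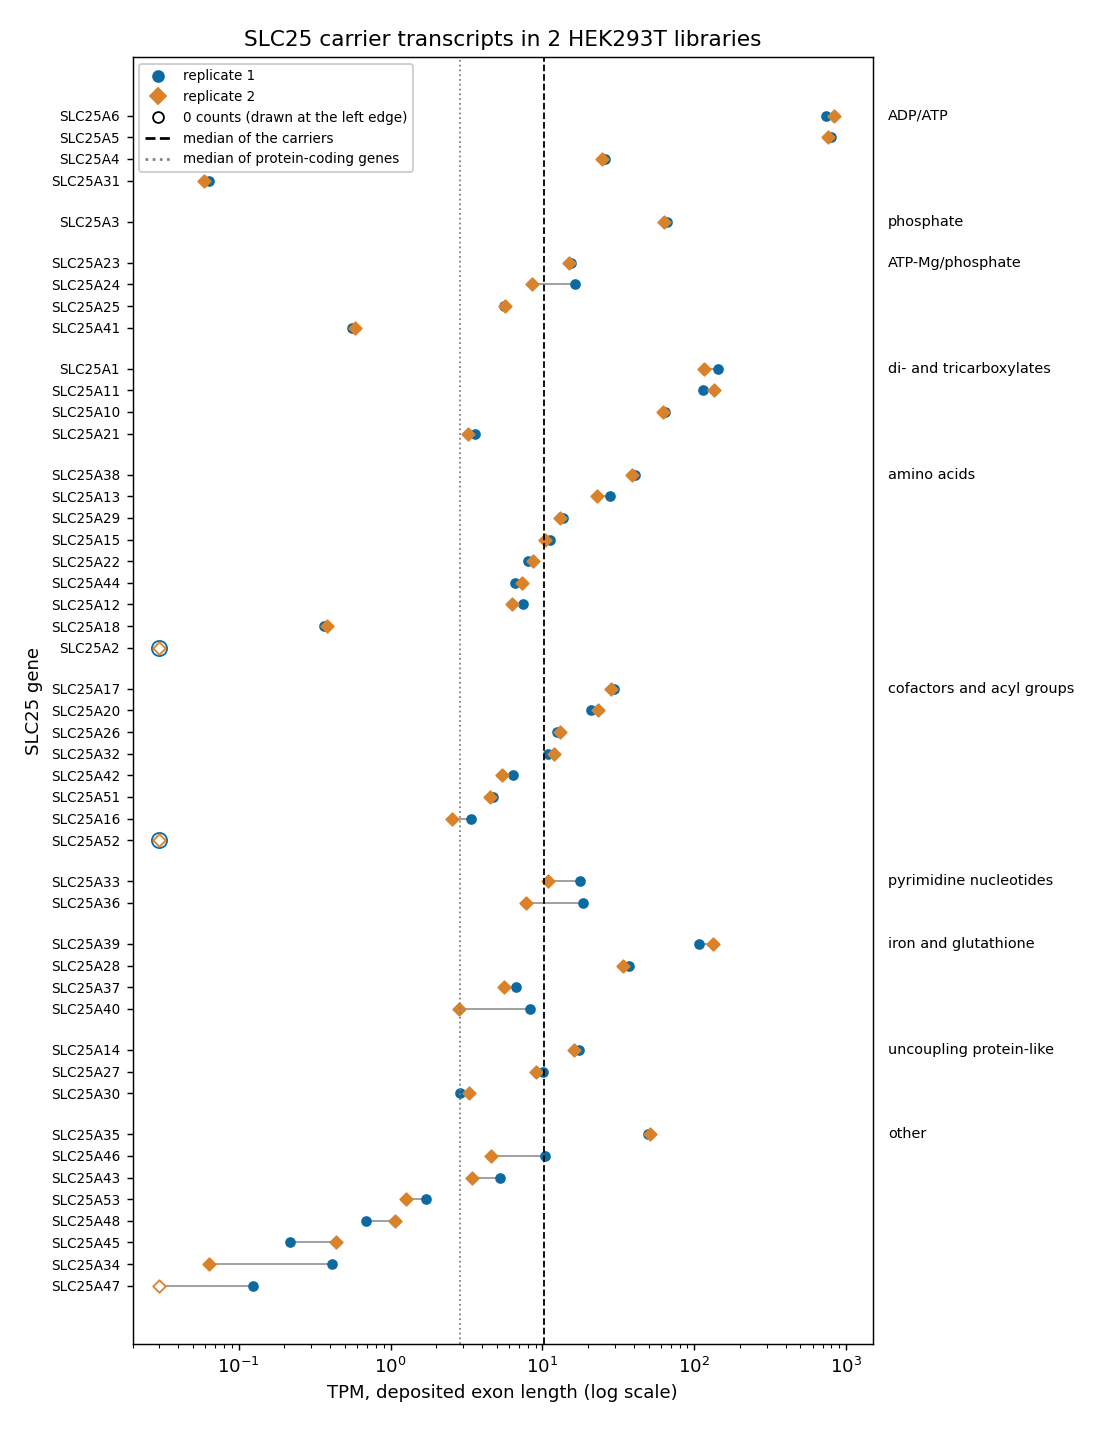
Levels of 47 SLC25 genes in TPM (log axis) in replicate 1 (circles) and replicate 2 (diamonds), ordered by substrate and then by mean; open symbols mark 0 counts. The dashed line marks the members' median of 10.2 TPM and the dotted line the protein-coding median of 2.88 TPM, and SLC25A5 and SLC25A6 stand far to the right of all other members.

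The ADP/ATP carriers, which bring ADP into the matrix and ATP out of it, held the highest and nearly the lowest levels of the family. They are shown here by the coding stretch that marks them. Only these 4 of the 48 members hold a run of 3 arginine and 3 methionine codons, in capitals below, at codons 235 to 240 of SLC25A4, SLC25A5 and SLC25A6 and at codons 247 to 252 of SLC25A31. The sequences are from GENCODE 29 transcripts on GRCh38, 5′ to 3′ on the coding strand, and each lies within 1 coding exon: chr4:185145818-185145883 (plus strand) for SLC25A4, chrX:119470432-119470497 (plus) for SLC25A5, chrX:1387295-1387360 (minus) for SLC25A6 and chr4:127768812-127768877 (plus) for SLC25A31.
SLC25A5: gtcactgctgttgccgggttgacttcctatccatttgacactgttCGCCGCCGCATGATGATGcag
SLC25A6: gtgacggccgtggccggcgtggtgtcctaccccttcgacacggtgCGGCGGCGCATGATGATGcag
SLC25A4: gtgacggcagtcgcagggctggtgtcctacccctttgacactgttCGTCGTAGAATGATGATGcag
SLC25A31: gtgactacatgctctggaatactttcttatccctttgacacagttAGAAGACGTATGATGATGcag
Over the whole coding sequence, SLC25A5 shares 78.7% of aligned bases with SLC25A6, 77.2% with SLC25A4 and 67.0% with SLC25A31.

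SLC25A5, the carrier known for its expression in dividing cells (chrX:119468422-119471396), had 10798 counts and 796 TPM in replicate 1 and 11100 counts and 760 TPM in replicate 2. SLC25A6, the widely expressed carrier in the pseudoautosomal region (chrX:1386152-1392113), had 9929 counts and 733 TPM in replicate 1 and 12204 counts and 837 TPM in replicate 2. Their order differed between the libraries, with a log2 TPM ratio of SLC25A5 over SLC25A6 of 0.12 in replicate 1 and -0.14 in replicate 2, so at this gene length they did not differ beyond their spread. When the longest coding transcript replaced the deposited exons as length, the mean ratio was 0.69. The length of SLC25A5 then fell from 1555 to 1274 bases, and that of SLC25A6 rose from 1553 to 2062. The SLC25A6 transcript, being longer than the deposited exons, holds bases outside them, so this ratio is uncertain. SLC25A4, the carrier of heart and skeletal muscle (chr4:185143266-185150382), had 1087 and 1115 counts, or 25.9 and 24.6 TPM. SLC25A5 was therefore 30.8-fold above SLC25A4 per length and 9.94-fold by CPM, and took 90.9% of the counts of the pair in each library (interval 90.3 to 91.4 in both). SLC25A31, the testis carrier (chr4:127730400-127774292), had 1 count in each library. Against SLC25A5 this is a log2 TPM ratio of 13.62 in replicate 1, with a counting interval from 2258-fold to 497032-fold. In bulk RNA such a low value cannot tell few cells with the transcript from little of it in every cell. Of the SLC25A5 exons, 13.2% are shared with the opposite-strand gene SLC25A5-AS1, which had 3386 and 4659 counts, so a part of either count is uncertain. How reads that also match the chromosome Y copy of SLC25A6 were handled is not given, so the SLC25A6 counts are uncertain too.

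SLC25A3, the carrier that brings phosphate into the matrix for ATP synthesis, had 5133 and 5275 counts, behind SLC25A5 and SLC25A6 alone by CPM (284 ± 0.707). By TPM it ranked 6, at 66.2 and 63.1, and this place follows from the 8896 exonic bases that the files assign to it. With its longest coding transcript of 6087 bases it had 65.8 ± 1.83 TPM. With its principal transcript of 1678 bases, a length chosen after the data were seen, it had 222 ± 5.93 TPM and again ranked behind those genes alone.

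The ATP-Mg/phosphate carriers, calcium-regulated exchangers that set the adenine nucleotide content of the matrix, were at modest levels. SLC25A23 had 15.4 TPM in replicate 1 and 15.0 in replicate 2, and SLC25A24 had 16.4 and 8.59 TPM from 960 and 543 counts. SLC25A24 thus stood above SLC25A23 in replicate 1 and below it in replicate 2, and the pair did not differ beyond the spread between libraries. SLC25A25 was lower, at 5.61 and 5.62 TPM. SLC25A41, a member known from testis, had 8 and 9 counts (0.556 and 0.581 TPM) and was not detected at 1 CPM.

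Carriers of di- and tricarboxylates formed the second most abundant substrate group, with a summed level of 321 ± 6.09 TPM, after the ADP/ATP carriers at 1588 ± 46.7 TPM. SLC25A1, which exports citrate for cytosolic acetyl-CoA, had 144 and 117 TPM from 2503 and 2188 counts. SLC25A11, the oxoglutarate/malate carrier, had 114 and 134 TPM from 2465 and 3122 counts. The ranges of these 2 genes overlap over the libraries. SLC25A10, the dicarboxylate carrier, had 63.9 and 62.5 TPM, below both in each library, but 46.6% of its exonic bases are shared with a same-strand gene, ENSG00000262660, that had 4989 and 5470 counts. SLC25A21, which carries oxoadipate and oxoglutarate, was far lower at 3.59 and 3.24 TPM, and 37.2% of its exonic bases are shared with other genes, including PAX9.

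Among the amino acid carriers, 7 of 9 members were detected, against 65.9% of protein-coding genes. Glycine, aspartate/glutamate and basic amino acid carriers led. SLC25A38, the glycine carrier needed for haem synthesis, had 40.4 and 39.1 TPM. SLC25A13, the aspartate/glutamate carrier that predominates in liver, had 27.7 and 22.9 TPM from 895 and 798 counts. SLC25A12, its paralogue of brain and muscle, had 7.47 and 6.29 TPM from 399 and 362 counts. SLC25A13 was higher in both libraries, by 1.89 and 1.86 on the log2 TPM scale, and took 69.2% of the pair's counts in replicate 1 (interval 66.6 to 71.7) and 68.8% in replicate 2 (66.0 to 71.5). The mean log2 ratio of 1.88 was 1.15 by CPM and 1.05 with longest coding transcripts. The enzymes of the malate-aspartate shuttle, in which these carriers work with SLC25A11, were all detected, with MDH1 at 129 ± 13.6 TPM, MDH2 at 105 ± 0.666, GOT1 at 57.0 ± 0.0693 and GOT2 at 48.1 ± 2.87. SLC25A12, at 6.88 ± 0.832 TPM, was the lowest gene of the shuttle, below SLC25A13 at 25.3 ± 3.37 TPM.

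The ornithine and glutamate carriers each had a detected and a nearly uncounted paralogue. SLC25A15, the ornithine carrier of the urea cycle, had 409 and 407 counts (11.2 and 10.3 TPM), while SLC25A2, its paralogue with a coding sequence in 1 exon, had 0 in both libraries. Set against a floor of 3 counts per library for SLC25A2, SLC25A15 was at least 46.1-fold higher per length in replicate 1 and 45.9-fold in replicate 2. SLC25A22, glutamate carrier 1, had 8.08 and 8.66 TPM from 324 and 374 counts, and SLC25A18, glutamate carrier 2, had 0.363 and 0.383 TPM from 15 and 17 counts. The log2 TPM ratio of SLC25A22 over SLC25A18 was 4.48 in replicate 1 and 4.50 in replicate 2. SLC25A29, a carrier of basic amino acids, had 13.7 and 13.1 TPM, and SLC25A44, a carrier of branched-chain amino acids, 6.57 and 7.28.

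Among the carriers of cofactors and acyl groups, 8 of 9 members were detected, against 65.9% of protein-coding genes. The detected members ran from 2.96 to 28.97 TPM, and the median of all 9 was 11.4 TPM. SLC25A17, the peroxisomal member of the family, was highest at 29.7 and 28.3 TPM. SLC25A20, the carnitine/acylcarnitine carrier of fatty acid oxidation, had 20.8 and 23.2 TPM, below SLC25A17 in both libraries. SLC25A26, the S-adenosylmethionine carrier, had 12.4 and 13.1 TPM. SLC25A32, the folate/FAD carrier, had 10.8 and 11.9 TPM, but 80.8% of its exonic bases are shared with other genes, so its value is uncertain. SLC25A42, which carries coenzyme A, had 6.39 and 5.41 TPM, above SLC25A16 at 3.40 and 2.53 TPM in each library by 0.91 and 1.10 on the log2 TPM scale. Much of this comes from the lengths of 4666 and 7865 bases: the log2 ratio was 0.25 by CPM, and SLC25A42 took 52.7% of the pair's counts in replicate 1 (interval 48.2 to 57.2) and 55.9% in replicate 2 (51.0 to 60.7).

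The NAD carrier SLC25A51 (chr9:37879400-37904353) had 141 and 144 counts, or 4.76 and 4.51 TPM, and its near-copy SLC25A52 (chr18:31759584-31760880) had 0 in both libraries. The coding sequences of these genes differ at 21 of 891 aligned bases. The stretch of 120 bases with the most differences, 7 in all, is shown because such bases tell the copies apart; capitals mark the bases that differ, and both sequences are GENCODE 29 coding sequence on the minus strand, at chr9:37888112-37888231 and chr18:31760223-31760342.
SLC25A51: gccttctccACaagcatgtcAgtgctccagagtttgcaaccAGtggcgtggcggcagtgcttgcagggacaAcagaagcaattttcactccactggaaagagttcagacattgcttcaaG
SLC25A52: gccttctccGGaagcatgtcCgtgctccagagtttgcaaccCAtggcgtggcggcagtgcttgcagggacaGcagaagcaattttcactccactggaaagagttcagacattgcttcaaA
Of all 50-base words in the longest coding transcript, 26.4% of those of SLC25A51 and 29.3% of those of SLC25A52 occur in another gene's transcript. The words shared between the 2 genes themselves were 21.1% of those of SLC25A51 and 27.2% of those of SLC25A52. How the authors treated reads that match both is not given in the sources used here. Against 3 counts in each library, SLC25A51 was at least 17.9-fold above SLC25A52 per length in replicate 1 and 18.3-fold in replicate 2. In this search SLC25A33 was the only other member with 20% or more of its words elsewhere (20.7%, mostly in a processed pseudogene). The search left out chromosome Y copies of pseudoautosomal genes, so it does not cover that of SLC25A6.

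The pyrimidine nucleotide carriers could not be ordered by TPM with the deposited exon lengths of 3865 bases for SLC25A33 and 10339 for SLC25A36. SLC25A33 had 17.6 and 10.9 TPM from 592 and 397 counts, and SLC25A36 had 18.5 and 7.76 TPM from 1672 and 754 counts. The log2 TPM ratio of SLC25A33 over SLC25A36 was -0.08 in replicate 1 and 0.49 in replicate 2. With longest coding transcripts it was -1.23 and -0.66, with a mean of -0.94. By CPM the log2 ratio was -1.50 and -0.93, so by either measure SLC25A36 was higher in both libraries.

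The iron and glutathione carriers were all detected. SLC25A28, the widely expressed mitoferrin that imports iron, had 37.2 and 33.7 TPM from 593 and 579 counts. SLC25A37, the mitoferrin of red cell precursors, had 6.65 and 5.59 TPM from 464 and 420 counts. SLC25A28 was 5.80-fold higher per length, but much of this comes from the lengths of 1830 and 7996 bases, since its share of the pair's counts was 56.1% (interval 53.0 to 59.1) in replicate 1 and 58.0% (54.8 to 61.0) in replicate 2. SLC25A39, a carrier for glutathione, had 107 and 132 TPM from 3302 and 4382 counts, and ranked 5 in the family by TPM. SLC25A40, its paralogue, had 8.23 and 2.83 TPM from 365 and 135 counts, so the log2 ratio of SLC25A39 over SLC25A40 was 3.71 in replicate 1 and 5.55 in replicate 2. Its mean of 4.63 became 5.43 with longest coding transcripts.

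The uncoupling protein-like members were all detected. SLC25A14 had 17.5 and 16.2 TPM and SLC25A27 10.2 and 9.11, both known mainly from brain, while SLC25A30, known from mouse kidney, had 2.85 and 3.31 TPM. SLC25A14 exceeded SLC25A27 in both libraries, by 0.79 and 0.83 on the log2 TPM scale. This mean difference of 0.81 was 1.45 with longest coding transcripts. The log2 TPM ratio of SLC25A30 over SLC25A27 was -1.83 and -1.46. Its mean of -1.65 shrank to -0.60 by CPM and -0.91 with longest coding transcripts. The related uncoupling proteins that carry other symbols were uneven, with UCP2 at 16.6 ± 0.114 TPM, UCP3 at 15 and 21 counts and UCP1, the heat-producing protein of brown fat, at 1 and 0 counts.

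Of the other members, SLC25A35 was highest at 49.5 and 51.2 TPM. However, 28.7% of its exonic bases are shared with RANGRF on the opposite strand, which had 1591 and 1797 counts against 1705 and 1901 for SLC25A35, so its level is uncertain. Its paralogue SLC25A34 had 12 and 2 counts. SLC25A46, an outer membrane protein involved in mitochondrial shape, had 10.3 and 4.58 TPM. SLC25A43 had 5.29 and 3.45 TPM, SLC25A53 1.71 and 1.26, and SLC25A48 0.685 and 1.07. SLC25A45 had 15 and 32 counts and passed 1 CPM in replicate 2 alone, and SLC25A47, known from liver, had 2 and 0 counts.

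Across the 18 paralogue pairs compared, the first-named member had the higher TPM in both libraries in 14, the second in 1, and in 3 the order differed between libraries. Pairs and their order of naming were set with earlier results of these data known, and some genes recur among the pairs. These numbers therefore describe the pairs and test nothing. The 3 pairs whose order by TPM differed were SLC25A5 with SLC25A6, SLC25A24 with SLC25A23 and SLC25A33 with SLC25A36. The pair led by its second member was SLC25A30 with SLC25A27. Several tissue paralogues were each below another member of their set by TPM in both libraries. They are those known from muscle (SLC25A4), brain and muscle (SLC25A12), testis (SLC25A31, SLC25A41) and red cell precursors (SLC25A37). For SLC25A37 much of this comes from gene length, since SLC25A28 was only 1.33-fold higher by CPM. The liver paralogue SLC25A13 led its pair.

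**Figure D2:**
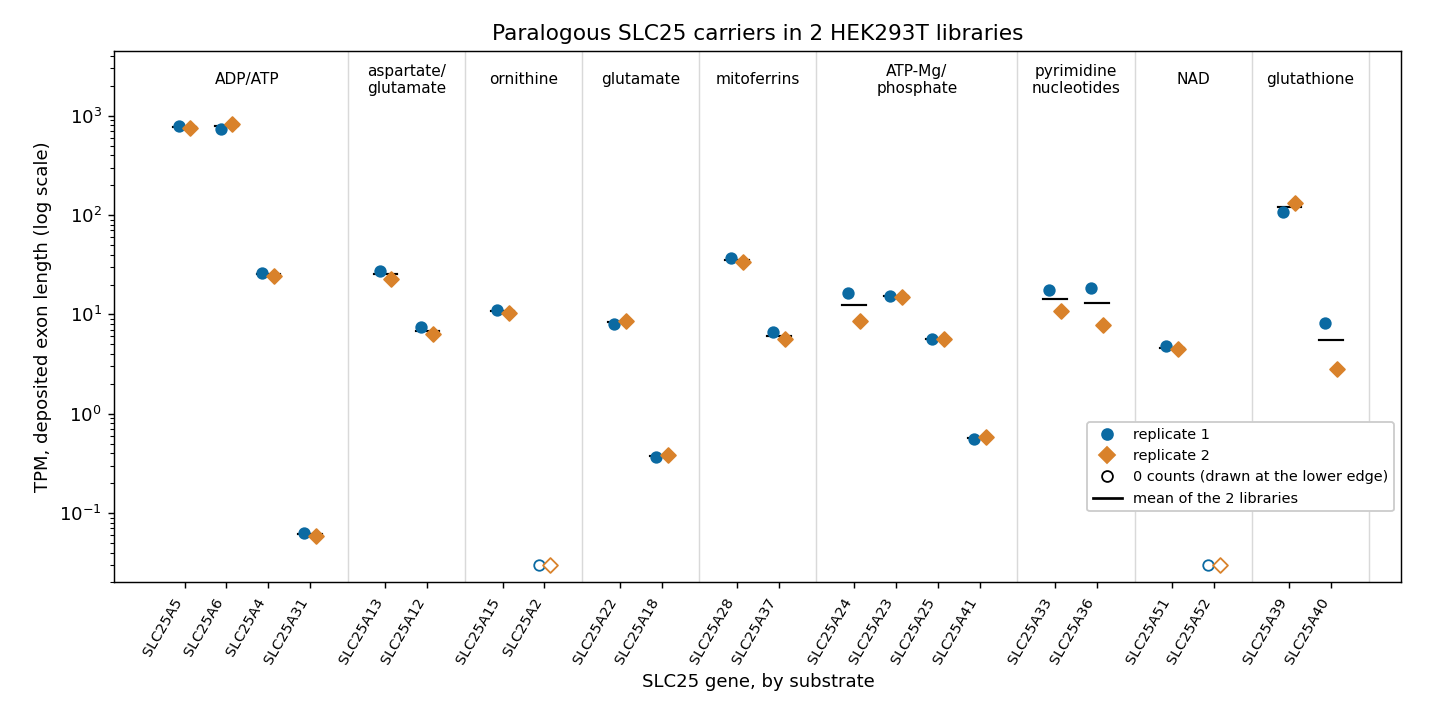
TPM (log axis) of paralogous carriers in 9 substrate sets, with replicate 1 as circles, replicate 2 as diamonds, the mean as a bar and open symbols for 0 counts. SLC25A31, SLC25A2, SLC25A18, SLC25A41 and SLC25A52 lie far below the leading member of their set, and the points of SLC25A24, SLC25A36 and SLC25A40 lie further apart between libraries than those of most other members shown.

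Marker genes of those tissues were examined beside these levels. By the same rule 65.9% of protein-coding genes were detected. Of 7 genes known from HEK293T, 6 were detected, from KRT8 at 21.4 ± 1.69 TPM to UCHL1 at 334 ± 5.81, and PAX2 had 23 and 15 counts. Of 6 genes each, 0 testis and 0 erythroid markers, 1 muscle marker (ACTN2, 0.542 ± 0.163 TPM) and 2 liver markers were detected. Their summed levels were 0.322 and 0.649 TPM for testis, 0.661 and 3.97 for erythroid, 1.01 and 1.24 for muscle and 4.88 and 4.41 for liver. The testis genes PRM1, TNP1 and ODF1, the erythroid genes SLC4A1 and AHSP, and the muscle genes MYH7 and MYL2 were at 0 in both libraries, and the erythroid gene HBB had 0 counts in replicate 1 and 38 in replicate 2. The liver genes detected were CPS1 (2.22 ± 0.0595 TPM), the first enzyme of the urea cycle, and APOA1 (2.37 ± 0.196), while ALB had 1 and 0 counts. Of 6 brown fat markers 2 were detected, with summed levels of 2.19 and 2.41 TPM, and of 6 neuronal markers 5 were, with 6.39 and 5.59 TPM.

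Transporters outside the family that serve mitochondria were mostly present. The porins of the outer membrane were all detected, with VDAC3 at 112 ± 1.38 TPM, VDAC2 at 88.6 ± 1.91 and VDAC1 at 80.6 ± 5.14. The pyruvate carrier subunits MPC1 and MPC2 had 71.2 ± 7.37 and 91.1 ± 3.50 TPM, and the testis form MPC1L had 0 counts. All 5 sideroflexins, which include the serine carrier SFXN1, were detected, from SFXN5 at 3.49 ± 0.0732 to SFXN4 at 43.6 ± 2.85 TPM, with SFXN1 at 20.6 ± 1.61. MTCH1 and MTCH2, outer membrane members of the family under other symbols, had 119 ± 9.57 and 53.0 ± 1.77 TPM.

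The choice of gene length moved the levels of several members. The longest coding transcript and the principal transcript, the second chosen after the data were seen, were each set against the deposited merged exons. SLC25A29 had 13.5 ± 0.351 TPM with the longest coding transcript and 27.2 ± 0.677 with the principal one, against 13.4 ± 0.421 with the merged exons. SLC25A48 had 1.36 ± 0.427 and 3.26 ± 1.03 TPM, against 0.876 ± 0.271. SLC25A46 had 17.97 ± 9.70 and 16.7 ± 9.01 TPM, against 7.45 ± 4.05, and its libraries were as far apart as that change. SLC25A24 moved little, with 13.7 ± 5.96 and 12.7 ± 5.53 TPM against 12.5 ± 5.49, and differed more between the libraries. SLC25A6 had 412 ± 40.6 and 384 ± 38.3 TPM, against 785 ± 73.2, and SLC25A5 662 ± 18.3 and 616 ± 16.3, against 778 ± 25.6. Both transcript lengths of SLC25A6 exceed its deposited exons and so include bases outside them, which makes its lower values uncertain. SLC25A5 and SLC25A6 were the 2 highest members with each of these lengths.

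**Figure D3:**
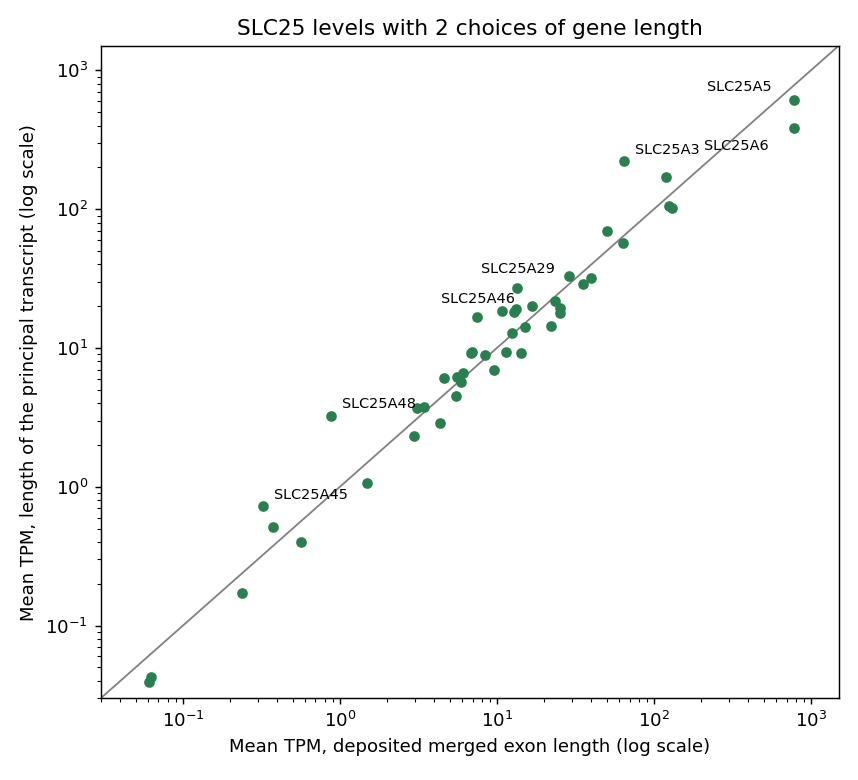
Mean TPM of the 46 counted members computed with the principal transcript (vertical, log axis) against mean TPM with the deposited merged exon length (horizontal, log axis); the line marks equal values. SLC25A3 lies well above the line (222 against 64.6 TPM) and SLC25A6 below it (384 against 785 TPM).

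The libraries were compared through the log2 ratio of replicate 1 over replicate 2, computed with edgeR's TMM scaling and limited to genes that averaged at least 50 counts, which 40 members did. Of these, 33 lay within 0.5 log2, against 88.3% of 14704 genes, and the members' median was -0.02. In replicate 1, 3 members were higher by 1 log2 or more, or 7.5%, against 1.92% of all genes, and no member was lower by as much, against 0.143% of all genes. SLC25A40 had 365 and 135 counts (log2 ratio 1.44), SLC25A36 1672 and 754 (1.16) and SLC25A46 744 and 356 (1.07). SLC25A24 followed at 0.83, and at the other end SLC25A48 had 50 and 84 counts (-0.71) and SLC25A39 3302 and 4382 (-0.39). With 1 library on each side there is no replicate check of these ratios.

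The members with the highest ratios, SLC25A40, SLC25A36, SLC25A46 and SLC25A24, had transcripts of low GC content. The longest coding transcript held 34.2% GC in SLC25A40, 37.4% in SLC25A36, 41.5% in SLC25A46 and 38.7% in SLC25A24, against a median of 49.7% over the 40 members. The other members past 0.5 log2 in either direction were nearer that median. They were SLC25A48 (-0.71, 53.1% GC), SLC25A33 (0.59, 45.7% GC) and SLC25A43 (0.51, 49.4% GC). Across the 40 members, Spearman's rho of the ratio with GC content was -0.51 and Pearson's r -0.53, and across 11974 genes with a coding transcript they were -0.48 and -0.43. The 1829 genes under 40% GC had a median ratio of 0.34, and the 10145 others -0.03. These are descriptions across genes that share the same 2 libraries. Once each ratio was centred on the median of genes alike in GC, a step added with the data in view, SLC25A40 stood at 0.97, SLC25A46 at 0.93 and SLC25A36 at 0.84, so that no member passed 1 log2, against 0.994% of genes higher in replicate 1 by as much. Low GC content alone did not go with a high ratio in each case: SLC25A17 (39.2% GC) had -0.02 and SLC25A21 (39.5% GC) 0.05. The part of GC content, or of any other property of the libraries, in these differences was not tested.

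**Figure D4:**
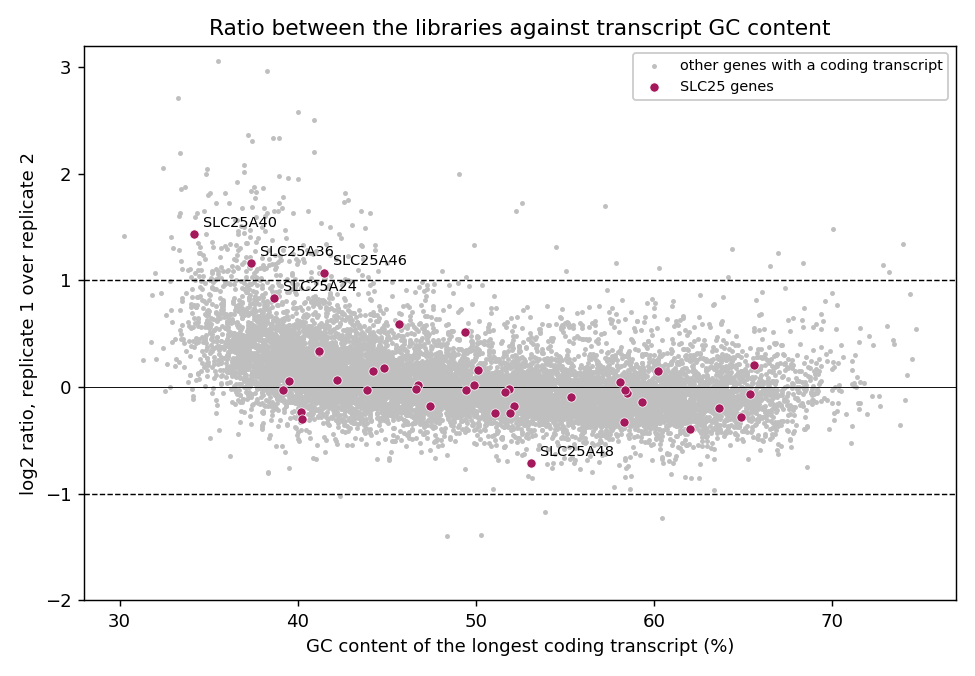
Log2 ratio of replicate 1 over replicate 2 (vertical) against GC content of the longest coding transcript in percent (horizontal) for the 40 SLC25 genes (large points) and other genes (small points) that averaged at least 50 counts; 1 gene lies outside the vertical range. SLC25A40, SLC25A36 and SLC25A46 lie above the dashed line at 1, in the GC-poor part of the axis where the other genes also lie higher.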

How the data were processed

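The deposited values are unnormalised whole-number counts, with each library in its own file keyed by Ensembl ID. GRCh38, featureCounts 2.0.3, Trim Galore 0.6.7 and bcl2fastq 2.17 appear in the submitters' processing notes. Which aligner and annotation were used, and how strand, overlaps and multiply matching reads were handled, is not given in the sources used here. An anchored oligo(dT) primer started cDNA synthesis, per the labels' protocols.

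Gene IDs were matched to symbols (60463 of 60664 matched). CPM used library totals, and TPM used the deposited merged exon length or, as alternatives, GENCODE 29 transcripts (longest coding, or APPRIS principal). Ratios used edgeR 4.0.16 in R 4.3.3 (prior count 2, TMM factors 1.01 and 0.989), and DESeq2 1.42.0 size factors as an alternative. Exonic overlap was taken on either strand. Shared 50-base words were searched among GENCODE 29 transcripts of genes at other loci, without chromosome Y copies of pseudoautosomal genes. Coding sequences were aligned with Biopython 1.88. The ratio calculation was tested on simulated data. Counts of the 2 libraries differed by more than sampling noise (chi-square of 9.32 per degree of freedom), and they are not the same counts deposited again. Whether they are separate libraries or 1 library sequenced in separate runs was not tested, and the chi-square says nothing of separate cultures.

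With a single group there was nothing to test between groups. All members of the family and of the related lists are named or counted, except that the values of 1 carrier and 1 marker are not reported here; members, pairs and lists were chosen with earlier results of these data known. Alternatives were the gene length, the scaling, the filters and leaving out each library.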

Additional observations from a re-analysis of the deposited data

How the results depend on the processing

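The members' median lay 1.83 log2 above the protein-coding median, 1.43 with CPM in place of TPM, 1.71 with principal transcript lengths (chosen after seeing the data) and 1.70 to 1.78 with 1 library left out. The 3 members past 1 log2 between libraries remained 3 in number under 2 other scalings and 2 other count minimums, and became 5 with no filter on the mean count, which adds SLC25A34 and SLC25A47 at very low counts, and 0 with GC centring. Members detected ranged from 39 to 42 over 4 alternatives, and the pairs led by their first member were 15 of 18 by mean TPM and 14 (of 17) to 16 over the alternatives. Of 111 pair ratios recomputed, 11 in 3 pairs changed sign, and 38 in 10 pairs, all from CPM or another length, moved by more than the spread between libraries with no change of sign. SLC25A5 over SLC25A6 (-0.01 log2) became 0.69 with either transcript length, and ranged from -0.14 to 0.12 with 1 library left out. SLC25A24 over SLC25A23 (-0.36) became 0.10 with CPM, with or without pseudogene counts, and ranged from -0.81 to 0.089 with 1 library left out. SLC25A33 over SLC25A36 (0.21) became -1.21 with CPM, with or without pseudogene counts, -0.94 with either transcript length, and ranged from -0.078 to 0.49 with 1 library left out. For pair ratios with CPM or a transcript length the construction shows the cause, since within a library only the gene lengths used then differ. Otherwise the cause was not tested. Depth limits the members with few counts, and 0 counts do not show absence. No paired analysis was possible because the labels give 1 group.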

Other observations

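Gene copies of the family were nearly uncounted. Of 43 annotated SLC25 pseudogenes in the files, 37 had 0 counts in both libraries, and the other 6 held 10 counts in replicate 1 and 19 in replicate 2. Among them were 8 of the 9 pseudogenes of SLC25A5 at 0, while SLC25A5 itself had 10798 and 11100 counts, and 4.57% of the 50-base words of its transcript occur in other genes. SLC25A1P5 had 7 and 11 counts. The share of all annotated pseudogenes at 0 counts was not computed, and how reads that match several genes were handled is not given. These counts therefore do not show how far the copies are transcribed. Antisense transcripts named after members and sharing exonic bases with them were uneven. SLC25A5-AS1 had 3386 and 4659 counts, SLC25A21-AS1 147 and 161 and SLC25A25-AS1 133 and 145. SLC25A30-AS1 had 14 and 10 counts, and SLC25A34-AS1 0 in both libraries. SLC25A21 itself had 149 and 145 counts.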
